A study of Mus musculus with 20 samples.

Results

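The mRNAs of 10 genes of the mTORC1 pathway were followed in adipose tissue that had lost α4: Mtor, Rptor, Deptor, Akt1s1, Tsc1, Tsc2, Rheb, Rps6kb1, Eif4ebp1 and Eif4ebp2. They were chosen by symbol, as the best known parts of the pathway, and with earlier results of these data known. All 10 were found among the 25219 genes of the deposited table and passed the filter on low counts in every comparison. α4, encoded by Igbp1, binds the catalytic subunit of protein phosphatase 2A, and its yeast homologue Tap42 is a protein of the TOR pathway. The 20 libraries came from inguinal white adipose tissue (iWAT) and interscapular brown adipose tissue (BAT) of male mice of mixed C57Bl/6 background, with 5 Control and 5 Ai-α4KO libraries per tissue. Ai-α4KO mice carried floxed α4 alleles and the tamoxifen-inducible Adiponectin-CreERT2 transgene, which is active in adipocytes and not in the other cells of the tissue. Control mice are called WT in the labels of the libraries, and the study's methods describe them as mice with the floxed alleles and without the transgene. Both genotypes received tamoxifen at 100 mg/kg, 5 times over 6 days from 2 months of age, and tissue was taken 1 week after recombination. Whether the same mouse gave both tissues is not stated, and p-values measure the spread between libraries.

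mTORC1 is a protein kinase complex at the lysosome that joins signals from insulin, amino acids and energy supply. The kinase mTOR works in it with the scaffold raptor (Rptor), which brings substrates to the kinase, and with the inhibitors Deptor and PRAS40 (Akt1s1). The TSC complex, made of Tsc1 and the GTPase-activating protein Tsc2, switches off the small GTPase Rheb, which otherwise activates mTORC1. Active mTORC1 phosphorylates S6 kinase (Rps6kb1) and the 4E-BP proteins (Eif4ebp1, Eif4ebp2), which hold back cap-dependent translation until they are phosphorylated. In adipocytes the pathway promotes adipogenesis and lipid storage downstream of insulin. These controls act largely on proteins, and only mRNA levels were measured here.

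Igbp1 checked the labels. Its range was 57.5 to 76.6 CPM in Control iWAT against 10.1 to 11.1 in Ai-α4KO iWAT, and 85.4 to 105 CPM in Control BAT against 13.7 to 25.2 in Ai-α4KO BAT. CPM is the count relative to the library total after TMM normalization over the 20 libraries. Library totals ran from 24023371 to 50384446 counts, and the lowest count of any member in any library was 520. The summed level of 10 adipocyte markers was 23652 to 31178 CPM in Control iWAT and 11790.0 to 16692 in Ai-α4KO iWAT, and 23699 to 26434 and 13245 to 15844 in BAT. Of these markers 9 of 10 fell in iWAT and 8 of 10 in BAT. All 10 macrophage markers rose in both tissues, and their sum was 1527 to 2745 CPM in Control against 8708 to 11489 in Ai-α4KO iWAT, and 309 to 689.6 against 5209.7 to 8539 in BAT. Endothelial markers fell, 4 of 5 in iWAT and 5 of 5 in BAT, with sums of 347 to 458 against 167 to 239 CPM in iWAT and 675 to 977 against 255 to 346 in BAT. The sum of 8 skeletal muscle markers was 920 to 9518 CPM in Control BAT and 13274 to 43329 in Ai-α4KO BAT, where 6 of 8 rose. In iWAT it was 7174 CPM in Control library 4 and 5618 in Ai-α4KO library 1, and at most 184 in the other 8. The sum of 7 brown adipocyte markers was 148 to 1018 CPM in Control against 20.7 to 45.7 in Ai-α4KO iWAT, where 6 fell, and 8345 to 12766 against 1634 to 3629 in BAT, where 2 fell. Neutrophil markers rose, 4 of 5 in iWAT and 5 of 5 in BAT, with sums of 19.2 to 88.4 against 145 to 479.7 CPM and 11.8 to 35.1 against 199 to 358. In BAT 2 of 5 stromal progenitor markers rose (sums of 809 to 1592 against 2836 to 4310.1 CPM), as did 3 of 5 T cell markers (2.08 to 4.01 against 13.003 to 51.8), and none of either list passed in iWAT. B cell markers reached 491 and 196 CPM in Control iWAT libraries 1 and 4 and stayed at or below 13.2 elsewhere. No adipocyte, macrophage, endothelial or muscle marker was at 0 in every library of a group. These marker shifts accompany every genotype comparison given here, their part in it was not tested, and fewer adipocytes cannot be told apart from less RNA per adipocyte.

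The upstream sequence of 4 members is printed because they stand for different outcomes below: Mtor and Tsc2 fell in Ai-α4KO adipose tissue, whereas Tsc1 and Rheb did not pass the test in either tissue. Each is the stretch of 250 bases before the transcription start in RefSeq on GRCm38.p6, read 5′ to 3′ on the gene's strand, and such a window was held for 8 of the 10 members. Capitals mark CCAAT boxes (CCAAT), GC boxes (GGGCGG), E-boxes (CACGTG) and half-sites of estrogen-related receptors (AAGGTCA), each searched on both strands. No base was shared by matches of different motifs.
Mtor, chr4:148448332-148448581, plus strand: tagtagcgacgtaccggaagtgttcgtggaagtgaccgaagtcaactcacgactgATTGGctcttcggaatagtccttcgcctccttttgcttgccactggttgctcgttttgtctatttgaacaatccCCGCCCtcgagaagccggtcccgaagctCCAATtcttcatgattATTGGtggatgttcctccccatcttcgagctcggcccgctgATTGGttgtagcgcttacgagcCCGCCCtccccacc
Tsc1, chr2:28640983-28641232, plus strand: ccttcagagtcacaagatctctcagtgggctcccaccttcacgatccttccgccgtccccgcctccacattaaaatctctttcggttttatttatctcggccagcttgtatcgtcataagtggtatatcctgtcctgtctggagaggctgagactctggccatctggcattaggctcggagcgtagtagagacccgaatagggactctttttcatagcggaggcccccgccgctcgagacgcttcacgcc
Tsc2, chr17:24632628-24632877, minus strand: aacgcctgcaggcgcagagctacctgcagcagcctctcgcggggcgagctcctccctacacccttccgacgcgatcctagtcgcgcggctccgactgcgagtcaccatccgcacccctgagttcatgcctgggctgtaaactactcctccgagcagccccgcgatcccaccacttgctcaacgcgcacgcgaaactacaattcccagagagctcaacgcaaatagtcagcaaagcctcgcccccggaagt
Rheb, chr5:24842362-24842611, minus strand: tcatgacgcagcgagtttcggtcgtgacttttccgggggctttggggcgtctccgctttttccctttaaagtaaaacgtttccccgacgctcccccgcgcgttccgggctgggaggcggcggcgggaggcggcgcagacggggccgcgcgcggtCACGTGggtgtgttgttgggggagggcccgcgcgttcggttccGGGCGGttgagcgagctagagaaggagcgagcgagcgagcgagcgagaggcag
The Mtor window held 4 CCAAT boxes and 2 GC boxes. At least 1 CCAAT box was found in 33.8% of the 32851 windows of the table, 4 or more in 0.84%, and at least 1 GC box in 32.7%. Rheb had 1 E-box, a motif in 6.02% of windows, and 1 GC box. Neither Tsc1 nor Tsc2 held any of these letters, nor did Rptor and Rps6kb1, while Eif4ebp2 and Akt1s1 had 2 GC boxes each. No member's window held the receptor half-site, which 4.08% of windows carry. The matches are letters in a window and were not compared with any binding data.

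Of the 10 members, 6 fell in Ai-α4KO iWAT and the same 6 fell in Ai-α4KO BAT: Mtor, Rptor, Deptor, Tsc2, Eif4ebp1 and Eif4ebp2. None rose in either tissue, and Akt1s1, Tsc1, Rheb and Rps6kb1 did not pass the test. A gene was called at an adjusted p below 0.01 in edgeR's quasi-likelihood test over all genes. By this rule 18.8% of the 14604 genes tested in iWAT were lower in Ai-α4KO mice, and 21.5% were higher. Of the 14344 genes tested in BAT, 24.8% were lower and 25.0% were higher. Lower in both tissues were 14.8% of the 13975 genes tested in both. The median log2 fold change of the members was -0.59 in iWAT and -0.83 in BAT, beside 0.01 and -0.03 over all genes. With a fold of at least 2 added, only Mtor remained in iWAT, where 10.7% of genes were lower by this rule. Mtor, Deptor, Tsc2 and Eif4ebp1 remained in BAT, where 13.3% of genes were. The scaling of the libraries moved the background: without normalization factors the median over all genes was 0.13 in iWAT and 0.23 in BAT, and 62.7% and 67.9% of the called genes were higher, against 53.3% and 50.2% with TMM.

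**Figure D1:**
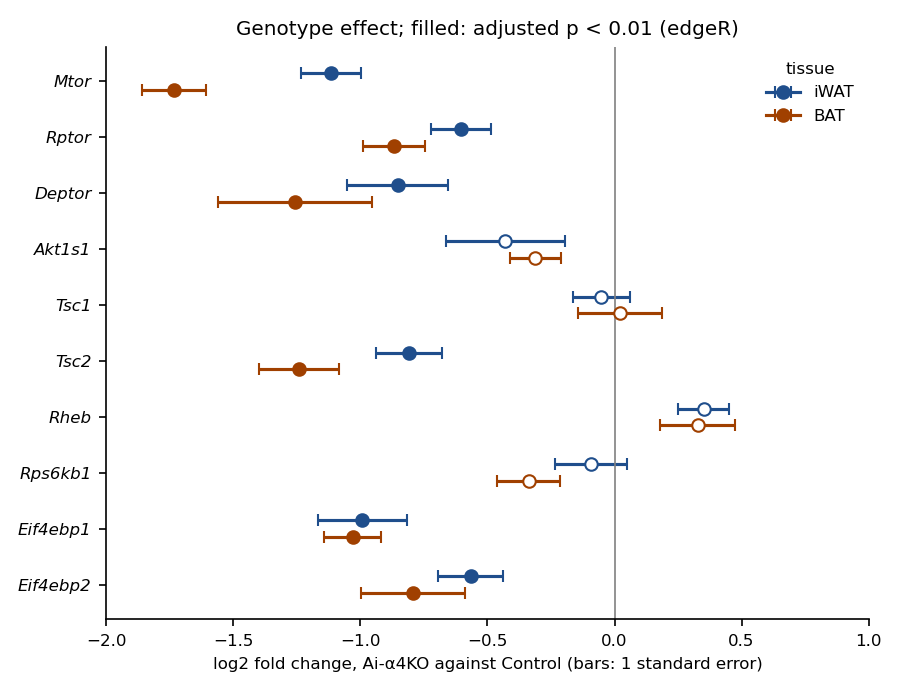
Log2 fold change of each of the 10 genes in Ai-α4KO against Control (horizontal axis) in iWAT and BAT, with bars of 1 standard error; filled points passed an adjusted p of 0.01 in edgeR's test. The 6 filled genes lie to the left in both tissues, from -0.57 for Eif4ebp2 in iWAT to -1.73 for Mtor in BAT, and Tsc1 lies at 0.

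Mtor, the kinase itself (Entrez 56717, mm10 chromosome 4 from 148448582 to 148557685, plus strand), showed the steepest fall of the members in both tissues. In iWAT it was at 78.2, 75.6, 95.9, 64.3 and 84.0 CPM in the Control libraries and 37.2, 37.7, 34.2, 42.9 and 32.3 in the Ai-α4KO libraries. In BAT it was at 175, 227, 217, 181 and 151 CPM in Control and 64.6, 63.3, 52.8, 53.8 and 58.4 in Ai-α4KO libraries. The genotypes did not overlap in either tissue, and the Ai-α4KO libraries varied little among themselves. Mtor was 2.17-fold lower in iWAT, or -1.12 on the log2 scale (standard error 0.118, adjusted p = 2.03e-05). It was 3.32-fold lower in BAT, at -1.73 (standard error 0.126, adjusted p = 3.71e-07). Both calls held in every alternative fit, with log2 fold changes from -1.29 up to -0.83 in iWAT, and in BAT from -1.81 up to -1.32.

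Rptor, the scaffold that carries substrates to the kinase (Entrez 74370, chromosome 11 from 119602995 to 119899591, plus strand), fell less. Its 5 Control iWAT libraries were at 40.5, 35.5, 34.9, 29.1 and 38.1 CPM and its Ai-α4KO libraries at 27.7, 23.5, 22.7, 24.1 and 19.5. In BAT the values were 45.8, 44.1, 55.2, 55.6 and 55.6 CPM in Control and 29.7, 29.6, 26.4, 34.1 and 24.5 in Ai-α4KO libraries. Again no Ai-α4KO library reached a Control library of the same tissue in CPM. In FPKM, Ai-α4KO iWAT library 1 (3.99) lay above Control iWAT library 4 (3.89). Its log2 fold change was -0.61 in iWAT (standard error 0.118, adjusted p = 0.00125) and -0.87 in BAT (standard error 0.122, adjusted p = 6.43e-05). Limma ended the iWAT call at both pseudocounts, with -0.38 (adjusted p = 0.0151) on log2(FPKM + 1) and -0.46 (adjusted p = 0.015) on log2(FPKM + 0.1).

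Deptor, an inhibitor of the kinase that binds it in both mTOR complexes (Entrez 97998, chromosome 15 from 55112317 to 55259273, plus strand), varied most among the Control libraries relative to its mean. Control iWAT libraries were at 394, 394, 493, 269.7 and 258 CPM and Ai-α4KO libraries at 177, 167, 175, 260.3 and 226. Control BAT libraries spread from 329 to 1417 CPM, with 547, 653 and 844 between, while Ai-α4KO BAT libraries lay close together at 305, 275, 393, 323 and 317. The genotypes overlapped in both tissues, by Ai-α4KO library 4 in iWAT and by Control library 5 in BAT. Deptor changed by -0.85 on the log2 scale in iWAT (standard error 0.199, adjusted p = 0.00378) and by -1.26 in BAT (standard error 0.304, adjusted p = 0.00334). The calls were the least secure of the kinase complex: 5 of 21 alternatives ended the one in iWAT and 5 of 20 the one in BAT, with adjusted p up to 0.0235 and 0.03. Of these losses, 3 in iWAT and 0 in BAT came from leaving out a single library, and the others from other settings. Leaving out Control library 2, Ai-α4KO library 2 or Ai-α4KO library 3 gave adjusted p of 0.0103, 0.0119 and 0.0131 in iWAT.

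Akt1s1, which encodes PRAS40, a raptor-bound inhibitor that Akt phosphorylates (Entrez 67605, chromosome 7 from 44849224 to 44855421, plus strand), turned on a single library. In Control iWAT it was at 49.5, 32.3, 40.6, 36.3 and 41.3 CPM, and in Ai-α4KO iWAT at 52.4, 24.5, 23.9, 23.8 and 24.4. The 4 Ai-α4KO libraries near 24 lay below every Control library, and Ai-α4KO library 1 lay above all of them. With that library the log2 fold change was -0.43 (standard error 0.233, adjusted p = 0.141), and without it -0.73 (adjusted p = 0.000483). The same library held the muscle markers named above, as did Control library 4 with 36.3 CPM of Akt1s1, and the part of muscle RNA in this was not tested. In BAT the levels were 54.9, 45.8, 51.8, 49.2 and 51.4 CPM in Control and 39.01, 39.80, 38.99, 48.4 and 42.9 in Ai-α4KO libraries. That difference, -0.31 on the log2 scale (standard error 0.1, adjusted p = 0.0168), did not pass the threshold. It did without Control library 2, at -0.36 with an adjusted p of 0.0088.

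**Figure D2:**
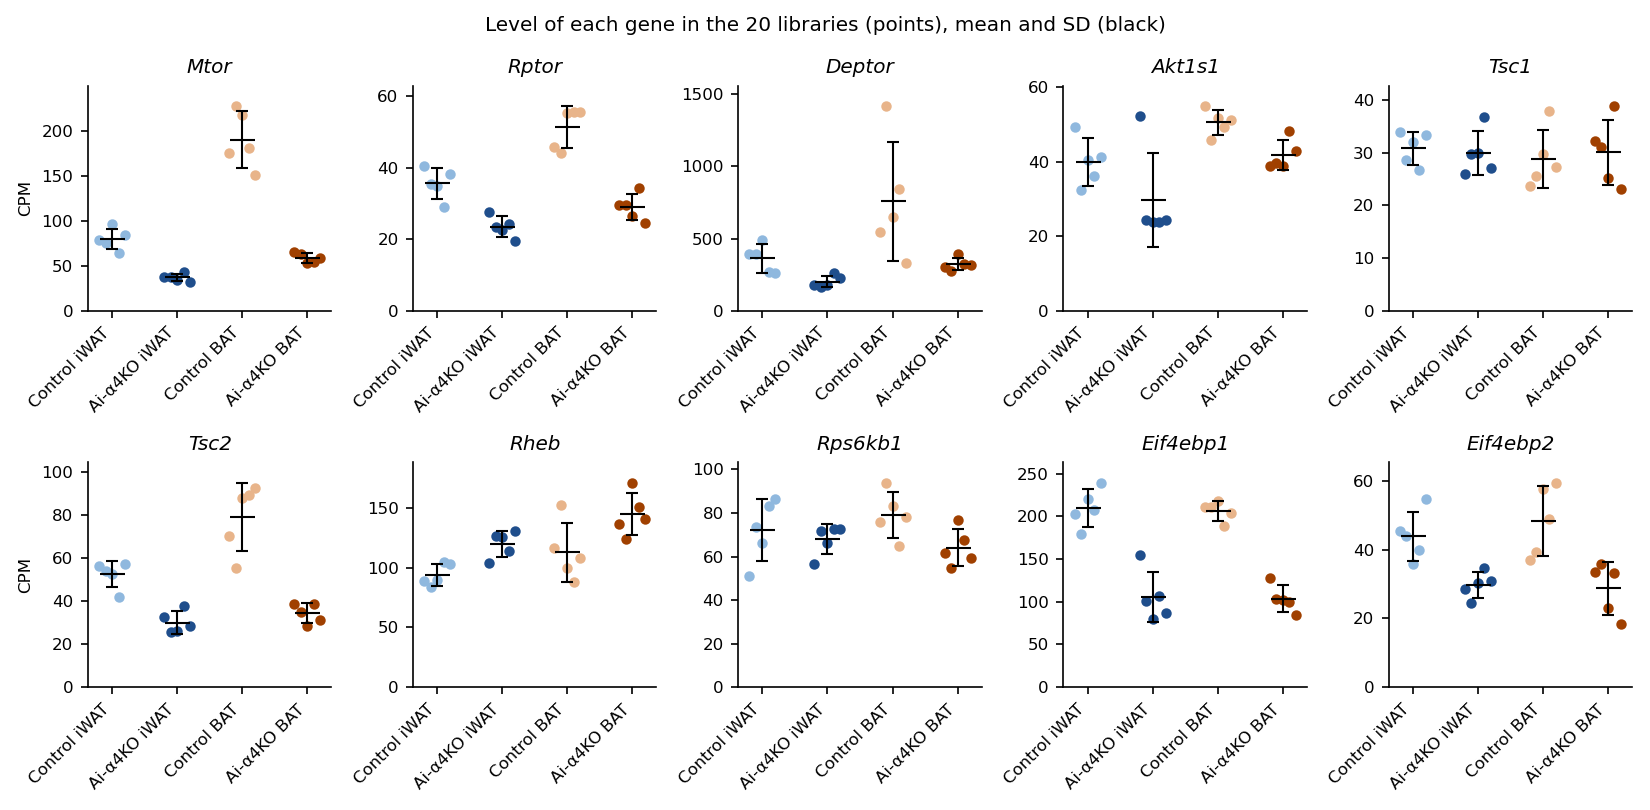
CPM (vertical axis, from 0, a scale of its own for each gene) of the 10 genes in the 5 libraries of each group (points), with the mean and SD in black. Mtor, Rptor, Tsc2, Eif4ebp1 and Eif4ebp2 show no overlap of genotypes in either tissue, and for Akt1s1 a single Ai-α4KO iWAT library at 52.4 CPM stands far above the other 4.

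Of the 2 main subunits of the TSC complex, Tsc2 fell in both tissues and Tsc1 did not pass the test. Tsc2, the subunit that acts on Rheb (Entrez 22084, chromosome 17 from 24595816 to 24632627, minus strand), was at 56.5, 53.8, 52.7, 42.1 and 57.3 CPM in Control iWAT and at 32.4, 25.5, 25.9, 37.9 and 28.5 in Ai-α4KO iWAT. In BAT it was at 70.2, 55.5, 88.1, 89.5 and 92.5 CPM in Control and 38.8, 35.0, 28.6, 38.8 and 31.1 in Ai-α4KO libraries, without overlap in either tissue. Tsc2 changed by -0.81 on the log2 scale in iWAT (standard error 0.131, adjusted p = 0.000344) and by -1.24 in BAT (standard error 0.157, adjusted p = 2.87e-05), and every alternative fit kept both calls, while a 2-fold minimum kept only the one in BAT. Its exons share 693 bases with those of Pkd1 on the opposite strand in GENCODE. The study's methods name a stranded library kit, while the sources used here do not say whether counting used strand. Pkd1 had log2 fold changes of -0.77 in iWAT and -0.95 in BAT (adjusted p = 0.00406 and 0.00113), and its part in the Tsc2 counts was not tested.

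Tsc1, the partner that stabilizes Tsc2 (Entrez 64930, chromosome 2 from 28641233 to 28691172, plus strand), had genotypes that did not separate. It was at 33.9, 28.6, 32.1, 26.7 and 33.3 CPM in Control iWAT and 25.97, 29.7, 30.01, 36.9 and 27.2 in Ai-α4KO iWAT. In BAT the values were 23.8, 25.7, 29.8, 37.9 and 27.3 CPM in Control and 32.3, 31.2, 25.3, 38.8 and 23.1 in Ai-α4KO libraries. The genotypes overlapped throughout in both tissues, with log2 fold changes of -0.05 in iWAT (standard error 0.113, adjusted p = 0.724) and 0.02 in BAT (standard error 0.165, adjusted p = 0.915).

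The ratio of Tsc2 to Tsc1 within a library does not depend on how libraries are scaled. In FPKM, which is per transcript length, Tsc2 was 1.89 to 2.26 times Tsc1 in Control iWAT and 1.03 to 1.499 times in Ai-α4KO iWAT. In BAT it was 2.60 to 4.07 times Tsc1 in Control and 1.20 to 1.62 times in Ai-α4KO libraries. These ratios were chosen after the values of the genes were seen and are given as a description, without p-values. Rptor relative to Mtor had geometric means of 0.556 in Control and 0.789 in Ai-α4KO iWAT, and 0.336 and 0.609 in the BAT groups. Deptor relative to Mtor was 4.41 and 5.35 in iWAT and 3.56 and 5.44 in BAT, with overlapping genotypes in both. Akt1s1 relative to Mtor was 1.91 and 2.93 in iWAT, with overlap, and 1.02 and 2.72 in BAT, without. Between the translation repressors, Eif4ebp1 relative to Eif4ebp2 was 8.76 in Control and 6.34 in Ai-α4KO iWAT and 7.89 and 6.72 in BAT, with overlapping genotypes in both.

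Rheb, the GTPase that switches mTORC1 on (Entrez 19744, chromosome 5 from 24802823 to 24842361, minus strand), was the only member with a positive fold change in both tissues, and its call depended on the scaling and on single libraries. It was at 88.6, 84.0, 89.6, 104.6 and 102.9 CPM in Control iWAT and 104.2, 126.6, 125.6, 114.5 and 130.8 in Ai-α4KO iWAT, where only the highest Control and the lowest Ai-α4KO library met. In BAT it was at 117, 153, 99.6, 87.8 and 109 CPM in Control and 137, 124, 171, 151 and 141 in Ai-α4KO libraries, with Control library 2 inside the Ai-α4KO range. On the log2 scale the difference was 0.35 in iWAT (standard error 0.1, adjusted p = 0.0117) and 0.33 in BAT (standard error 0.147, adjusted p = 0.0697). Without normalization factors both passed, at 0.47 (adjusted p = 0.00216) and 0.59 (adjusted p = 0.00232), but that setting also shifted the median over all genes by the amounts given above. Limma on log2(FPKM + 1) also called both, at 0.48 (adjusted p = 0.00195) and 0.60 (adjusted p = 0.00156), as it did with the smaller pseudocount, but it too moved the median over all genes, to 0.09 in iWAT and 0.15 in BAT, and 63.3% and 67.4% of its called genes were higher. In iWAT, DESeq2 gave 0.32 with an adjusted p of 0.00519, and leaving out Control library 4 or Ai-α4KO library 1 gave 0.39 and 0.40 (adjusted p = 0.00956 and 0.00471).

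Among the substrates, both 4E-BP genes fell and the S6 kinase gene did not pass the test. Eif4ebp1 (Entrez 13685, chromosome 8 from 27260327 to 27275656, plus strand) was at 203, 179.5, 221, 207 and 239 CPM in Control iWAT and 155, 101, 80.0, 107 and 86.9 in Ai-α4KO iWAT. In BAT it was at 211, 210.4, 218, 189 and 203 CPM in Control and 128, 103, 102, 99.8 and 85.0 in Ai-α4KO libraries. Neither tissue showed overlap, and Ai-α4KO iWAT library 1, which held muscle markers, was the highest of its group. Eif4ebp1 changed by -0.99 on the log2 scale in iWAT (standard error 0.173, adjusted p = 0.000596) and by -1.03 in BAT (standard error 0.113, adjusted p = 8.94e-06), a 1.99-fold and a 2.04-fold lower level, and every alternative fit kept both calls, while a 2-fold minimum kept only the one in BAT.

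Eif4ebp2 (Entrez 13688, chromosome 10 from 61432497 to 61452669, minus strand) fell by less. It was at 45.3, 43.8, 35.8, 39.8 and 54.8 CPM in Control iWAT and 28.5, 24.4, 30.4, 34.8 and 30.8 in Ai-α4KO iWAT. In BAT the values were 37.1, 39.2, 57.5, 49.0 and 59.4 CPM in Control and 33.4, 35.8, 23.0, 33.2 and 18.3 in Ai-α4KO libraries. The highest Ai-α4KO library lay just below the lowest Control library in both tissues, and in FPKM the genotypes overlapped. Eif4ebp2 changed by -0.57 on the log2 scale in iWAT (standard error 0.128, adjusted p = 0.00316) and by -0.79 in BAT (standard error 0.203, adjusted p = 0.0048). In iWAT 4 of 21 alternatives ended the call, with adjusted p up to 0.0276: no normalization factors, limma at both pseudocounts and the fit of all 20 libraries. In BAT 10 of 20 did, among them leaving out Control library 3, 4 or 5 or Ai-α4KO library 3 or 4, with adjusted p up to 0.014 in those fits and 0.0555 without normalization factors.

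Rps6kb1, the S6 kinase gene (Entrez 72508, chromosome 11 from 86499011 to 86544807, minus strand), had overlapping genotypes. Its levels were 51.1, 73.5, 66.0, 83.2 and 86.6 CPM in Control iWAT and 56.4, 71.9, 66.2, 72.5 and 72.6 in Ai-α4KO iWAT. In BAT they were 75.8, 93.8, 83.1, 64.9 and 78.0 CPM in Control and 61.6, 54.6, 76.8, 67.8 and 59.4 in Ai-α4KO libraries. The log2 fold change was -0.09 in iWAT (standard error 0.141, adjusted p = 0.606) and -0.34 in BAT (standard error 0.125, adjusted p = 0.0315). Its exons share 155 bases with Rnft1 on the opposite strand, and Rnft1 had log2 fold changes of 0.72 (adjusted p = 0.000399) in iWAT and 0.54 (adjusted p = 0.0171) in BAT. Deptor shares 303 exon bases with Gm9920 and Rptor 84 with Rptoros, both on the opposite strand. Akt1s1 shares 89 bases with Tbc1d17 in the same way, and Tbc1d17 fell, at -0.70 in iWAT with an adjusted p of 0.00387 and at -0.65 in BAT with an adjusted p of 0.00117. Akt1s1 also shares 73 bases with the microRNA gene Mir707, on the same strand. The part of any of these neighbours in the counts was not tested.

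Counted by overlap in CPM, every Ai-α4KO library lay below every Control library for Mtor, Rptor, Tsc2, Eif4ebp1 and Eif4ebp2 in both tissues. Over all genes tested the share was 18.3% in iWAT and 23.0% in BAT. In FPKM the genotypes overlapped for Rptor in iWAT and for Eif4ebp2 in both tissues.

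Set side by side per transcript length, the members covered a wide range. In Control iWAT, Eif4ebp1 was highest at 192 ± 19.3 FPKM (SD, n = 5), followed by Rheb at 55.6 ± 6.85, Deptor at 37.2 ± 8.72, Eif4ebp2 at 22.2 ± 4.26 and Akt1s1 at 16.0 ± 2.91. Below them came Mtor at 8.28 ± 0.824, Rps6kb1 at 8.22 ± 1.74, Tsc2 at 7.34 ± 0.961, Rptor at 4.62 ± 0.666 and Tsc1 at 3.60 ± 0.400. Neighbours in this order from Deptor down overlapped in their libraries, except Akt1s1 with Mtor and Tsc2 with Rptor. In Control BAT, Eif4ebp1 (163 ± 6.49 FPKM), Deptor (67.1 ± 34.5) and Rheb (57.4 ± 10.9) led, and Mtor reached 17.1 ± 2.27, level with Akt1s1 at 17.4 ± 1.52. In the Ai-α4KO groups Rheb was second, at 77.4 ± 6.30 FPKM in iWAT and 86.5 ± 8.29 in BAT, and its libraries overlapped those of Eif4ebp1, at 106 ± 30.8 and 96.5 ± 17.4 FPKM, in both tissues. In Ai-α4KO iWAT, Mtor was at 4.202 ± 0.475 FPKM and lay below Rps6kb1 at 8.43 ± 0.815 without overlap, whereas in Control iWAT the 2 genes overlapped. In Ai-α4KO BAT, Mtor at 6.23 ± 0.868 FPKM overlapped Rps6kb1 at 7.37 ± 0.801, and in Control BAT it lay above it, at 7.76 ± 0.792, without overlap.

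**Figure D3:**
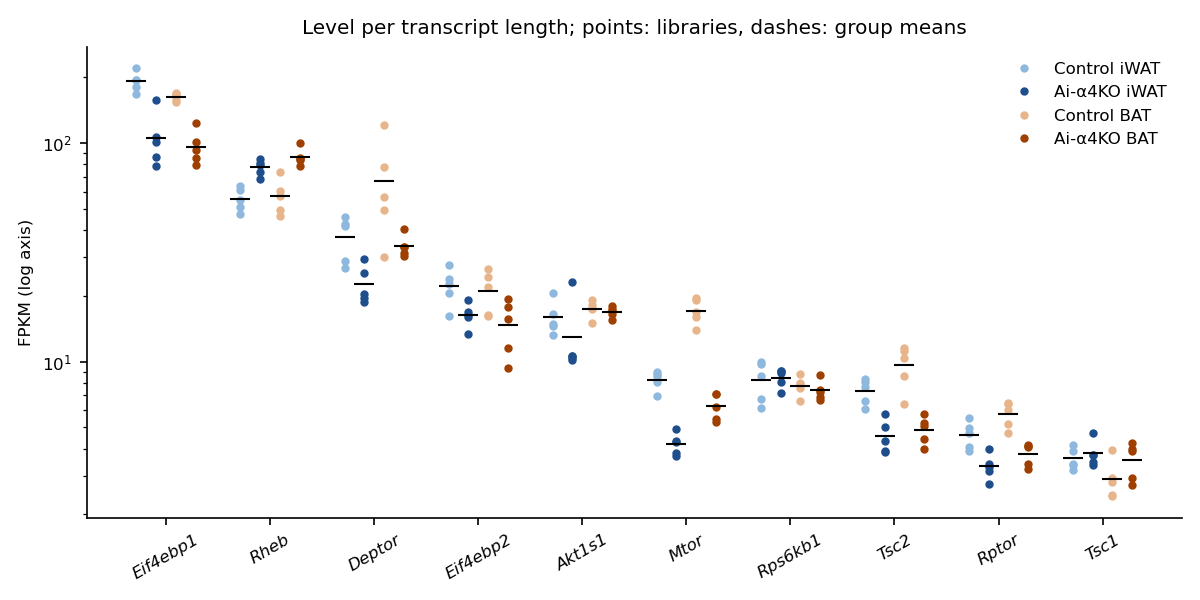
FPKM (vertical log axis) of the 10 genes, ordered by their mean in Control iWAT, in the libraries of the 4 groups (points) with group means as dashes. Eif4ebp1 has the highest mean in every group, with libraries from 78.6 to 220.0 FPKM, and Tsc1 and Rptor the lowest means, with libraries from 2.42 to 6.43 FPKM.

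Between the depots, Mtor was higher in BAT than in iWAT in both genotypes. In Control mice its log2 difference, BAT over iWAT, was 1.22 (standard error 0.138, adjusted p = 3.73e-05) and that of Rptor 0.49 (standard error 0.12, adjusted p = 0.00514). These were the 2 of 10 members called, both higher in BAT, a direction in which 16.4% of the 14260 genes tested were called. Deptor, at 1.02 (standard error 0.334, adjusted p = 0.024), and Tsc2, at 0.56 (standard error 0.155, adjusted p = 0.0105), missed the threshold, and both passed in DESeq2. In Ai-α4KO mice Mtor differed by 0.72 (standard error 0.101, adjusted p = 0.000503) and Deptor by 0.73 (standard error 0.155, adjusted p = 0.00422), again 2 of 10, where 12.2% of 14703 genes were called higher in BAT. Rptor lost its call among the Control libraries when any of Control iWAT 2, 3 or 4 or Control BAT 3 or 4 was left out, and also with the replicate block, without normalization factors, with upper-quartile normalization and with limma. Deptor lost its call among the Ai-α4KO libraries without Ai-α4KO iWAT 2 or 3 or Ai-α4KO BAT 3 or 5. These comparisons share libraries with those of the genotypes. Cell markers differed between the depots too: among Control libraries all 10 macrophage and all 5 stromal progenitor markers were lower in BAT, and all 7 brown adipocyte and 4 of 5 endothelial markers were higher. All 6 B cell and 5 T cell markers tested and 2 of 5 neutrophil markers were lower in BAT as well. Skeletal muscle markers had a median log2 difference, BAT over iWAT, of 2.03 among Control and 4.34 among Ai-α4KO libraries, with none of 8 called in either. Among Ai-α4KO libraries 2 of 10 macrophage and 3 of 5 stromal markers were lower in BAT, and all 7 brown adipocyte and 2 of 5 endothelial markers were higher. Their part in the depot differences was not tested.

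Whether α4 loss moved a member differently in the 2 depots was asked of an interaction term of genotype and tissue, fitted over the 20 libraries together. No member passed, where 4.86% of the 15230 genes tested did. Mtor came nearest, with a fall larger by 0.59 on the log2 scale in BAT than in iWAT (log2 interaction -0.59, standard error 0.173, adjusted p = 0.0287), and it was the 1 member at an unadjusted p below 0.05. DESeq2 called none of the members either. For Tsc2 the interaction was -0.40 (standard error 0.205, adjusted p = 0.197) and for Deptor -0.38 (standard error 0.391, adjusted p = 0.53).

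Around these 10, a list of 74 further genes covered the rest of the pathway. In Ai-α4KO iWAT 12 of the 74 rose (16.2%) and 16 fell (21.6%). In Ai-α4KO BAT 15 rose (20.3%) and 25 fell (33.8%). The balance depended on the scaling: without normalization factors 15 rose and 12 fell in iWAT, and 19 rose and 16 fell in BAT, and limma on log2(FPKM + 1) gave 14 and 14 in iWAT and 19 and 17 in BAT. Upper-quartile normalization gave 12 and 21 in iWAT and DESeq2 13 and 23, with 17 and 23 and 19 and 25 in BAT. With TMM, in iWAT these shares lie near those over all genes given above, and in BAT the share that fell was higher and the share that rose lower. The median log2 fold change of the list was -0.09 in iWAT and -0.30 in BAT. In both tissues 12 of the 74 fell (14.8% of all genes did), 8 rose (15.2% of all genes) and none was called in opposite directions (0.200% of all genes). The groups below are small, and their counts are to be read beside the shares over all genes in each tissue. Genes are named here as the best known of each group or for the largest changes, and further names were chosen after their values were seen.

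Of the other parts of the kinase complex and its assembly factors, none of 5 passed in iWAT and 2 of 5 fell in BAT, the assembly factors Telo2 (-0.89, adjusted p = 0.000544) and Ruvbl2 (-1.28, adjusted p = 3.57e-06). Mlst8, the small subunit that steadies the kinase, had log2 fold changes of -0.23 (adjusted p = 0.132) in iWAT and -0.34 (adjusted p = 0.0399) in BAT. Rictor, the scaffold of the sister complex mTORC2, had 0.17 (adjusted p = 0.257) in iWAT and -0.37 (adjusted p = 0.0482) in BAT. Tbc1d7, the third subunit of the TSC complex, fell in iWAT (-0.57, adjusted p = 0.00262) and had -0.45 in BAT (adjusted p = 0.0274). Of the 4 mTORC2 genes, 1 passed, Mapkap1 in BAT (-0.66, adjusted p = 0.000121). In FPKM, Rictor relative to Rptor was 0.715 in Control and 1.22 in Ai-α4KO iWAT, and 0.567 and 0.800 in BAT, again given without a p-value, and the genotypes overlapped in both.

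In the amino acid branch, all 3 subunits of GATOR1, the complex that silences the Rag GTPases when amino acids are scarce, fell in iWAT, and 2 of 3 fell in BAT. Over all genes tested 18.8% fell and 21.5% rose in iWAT, and 24.8% fell and 25.0% rose in BAT. Nprl2 was at -0.74 in iWAT and -1.36 in BAT and Depdc5 at -0.49 and -0.87, while Nprl3 was at -0.66 in iWAT and -0.34 in BAT (adjusted p = 0.0602). Of GATOR2, which opposes it, 1 of 5 fell in iWAT and 2 of 5 in BAT, with Wdr24 in both at -0.65 and -0.98. In KICSTOR, which holds GATOR1 at the lysosome, 1 of 4 fell in iWAT and 2 of 4 in BAT. Its subunit Kptn fell by 0.98 and by 1.31 on the log2 scale. Of 7 amino acid sensors, 3 fell and 2 rose in iWAT and 2 fell and 2 rose in BAT. Castor1, the arginine sensor, fell from 9.62 ± 2.64 to 3.24 ± 0.729 CPM (SD, n = 5 each) in iWAT, and BAT means were 9.84 ± 1.505 and 3.10 ± 0.273 CPM. Samtor, the sensor of S-adenosylmethionine, rose from 18.2 ± 2.07 to 40.0 ± 8.47 CPM in iWAT, with BAT means of 21.7 ± 3.91 and 34.8 ± 6.29 CPM (log2 fold changes 1.12 and 0.65).

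The sestrins, stress-induced proteins that hold mTORC1 back, did not move as a family. Sesn1 rose, by 0.59 (adjusted p = 0.00242) in iWAT and by 0.89 (adjusted p = 0.00129) in BAT. Sesn2, the leucine sensor, fell, at -0.99 (adjusted p = 0.00224) and -1.61 (adjusted p = 0.000524). Sesn3 fell in iWAT, at -1.02 (adjusted p = 0.00309), and had -0.71 in BAT (adjusted p = 0.0262).

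Ragulator, the lysosomal platform of the Rag GTPases, had 1 of 5 members up and 1 down in each tissue. Lamtor3 rose in both, by 0.89 in iWAT and 0.48 in BAT. Of the Rag GTPases, Rraga rose in iWAT (0.44, adjusted p = 0.000892). In BAT Rragb (-1.46, adjusted p = 0.000733) and Rragc (-0.51, adjusted p = 0.00133) fell and Rragd rose. In the folliculin complex, which controls the Rag proteins that recruit Tfe3 and Tfeb, 2 of 3 genes rose in iWAT, and 1 rose and 1 fell in BAT. Fnip2 rose from 20.2 ± 5.09 to 43.5 ± 5.87 CPM in iWAT, and its BAT means were 19.1 ± 1.95 and 42.4 ± 7.87 CPM (SD, n = 5 each). Flcn itself was at 0.18 in iWAT (adjusted p = 0.316) and fell in BAT (-0.68, adjusted p = 0.00581).

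Of 12 upstream kinases and stress inputs, 2 rose and 3 fell in iWAT (16.7% and 25%), and 4 rose and 4 fell in BAT (33.3% each). The shares over all genes were 21.5% and 18.8% in iWAT, and 25.0% and 24.8% in BAT. Ddit4 (REDD1), which activates the TSC complex under stress, fell from 40.3 ± 11.99 to 12.9 ± 7.53 CPM in iWAT, with BAT means of 72.8 ± 26.3 and 20.8 ± 10.6 CPM (SD, n = 5 each), at log2 fold changes of -1.64 and -1.84. Akt2, the Akt isoform of insulin action in adipocytes, fell by 1.35 and by 1.44 on the log2 scale (adjusted p = 6.6e-05 and 1.69e-05), and Stk11 (LKB1), the kinase that activates AMPK, by 0.55 and by 0.999 (adjusted p = 0.00604 and 7.78e-06), whereas Akt1 was at 0.34 and -0.16 (adjusted p = 0.0806 and 0.539). The RSK kinases Rps6ka1 and Rps6ka3, which phosphorylate Tsc2 and raptor downstream of ERK, rose. Rps6ka3 was at 149.8 ± 28.4 CPM in Control and 401 ± 85.9 in Ai-α4KO iWAT, and at 129 ± 38.1 and 237 ± 53.4 in BAT. Rps6ka1 was at 20.2 ± 6.45 and 37.9 ± 2.49 CPM in iWAT, and at 7.02 ± 1.22 and 24.5 ± 3.74 in BAT (SD, n = 5 each). Macrophage markers rose in the same libraries, and their part in the RSK values was not tested.

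Of 9 downstream genes of autophagy, lysosome, lipid synthesis and feedback, 2 rose and 2 fell in iWAT, and 2 rose and 3 fell in BAT. Lpin1, a phosphatidate phosphatase whose nuclear entry mTORC1 controls, had the largest fall of the list in both tissues, from 502 ± 122 to 100.2 ± 16.2 CPM in iWAT, with BAT means of 776 ± 158 and 205 ± 22.0 CPM (SD, n = 5 each). Its log2 fold changes were -2.33 (standard error 0.182, adjusted p = 4.03e-06) and -1.96 (standard error 0.154, adjusted p = 6.47e-07). Ulk1, the autophagy kinase that mTORC1 inhibits, fell by 0.72 and by 0.98 on the log2 scale (adjusted p = 0.000307 and 0.00014). Of the lysosomal transcription factors, Mitf rose by 1.09 and 1.31 and Tfe3 by 0.71 in iWAT (adjusted p = 1.7e-05), with 0.41 in BAT (adjusted p = 0.0157), while Tfeb was at -0.47 (adjusted p = 0.142) and 0.14 (adjusted p = 0.549).

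In the 4E-BP arm 2 of 5 genes rose in each tissue and none fell, and in the S6 kinase arm 1 of 6 fell in iWAT while 2 rose and 3 fell in BAT. Eif4e, the cap-binding protein that the 4E-BPs hold, rose by 0.65 (adjusted p = 0.000624) in iWAT and by 0.52 (adjusted p = 0.00547) in BAT. Eif4ebp3, the third 4E-BP gene, rose in BAT (0.66, adjusted p = 0.00262) and had 0.35 in iWAT (adjusted p = 0.222), opposite in sign to Eif4ebp1 and Eif4ebp2. Rps6kb2, the second S6 kinase gene, fell in both tissues, at -0.75 (adjusted p = 0.001) and -0.44 (adjusted p = 0.00884), unlike Rps6kb1, though no test compared the 2 genes. Rps6, the ribosomal protein that S6 kinase phosphorylates, was at 0.45 in iWAT (adjusted p = 0.0308) and rose in BAT (0.56, adjusted p = 0.00118).

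**Figure D4:**
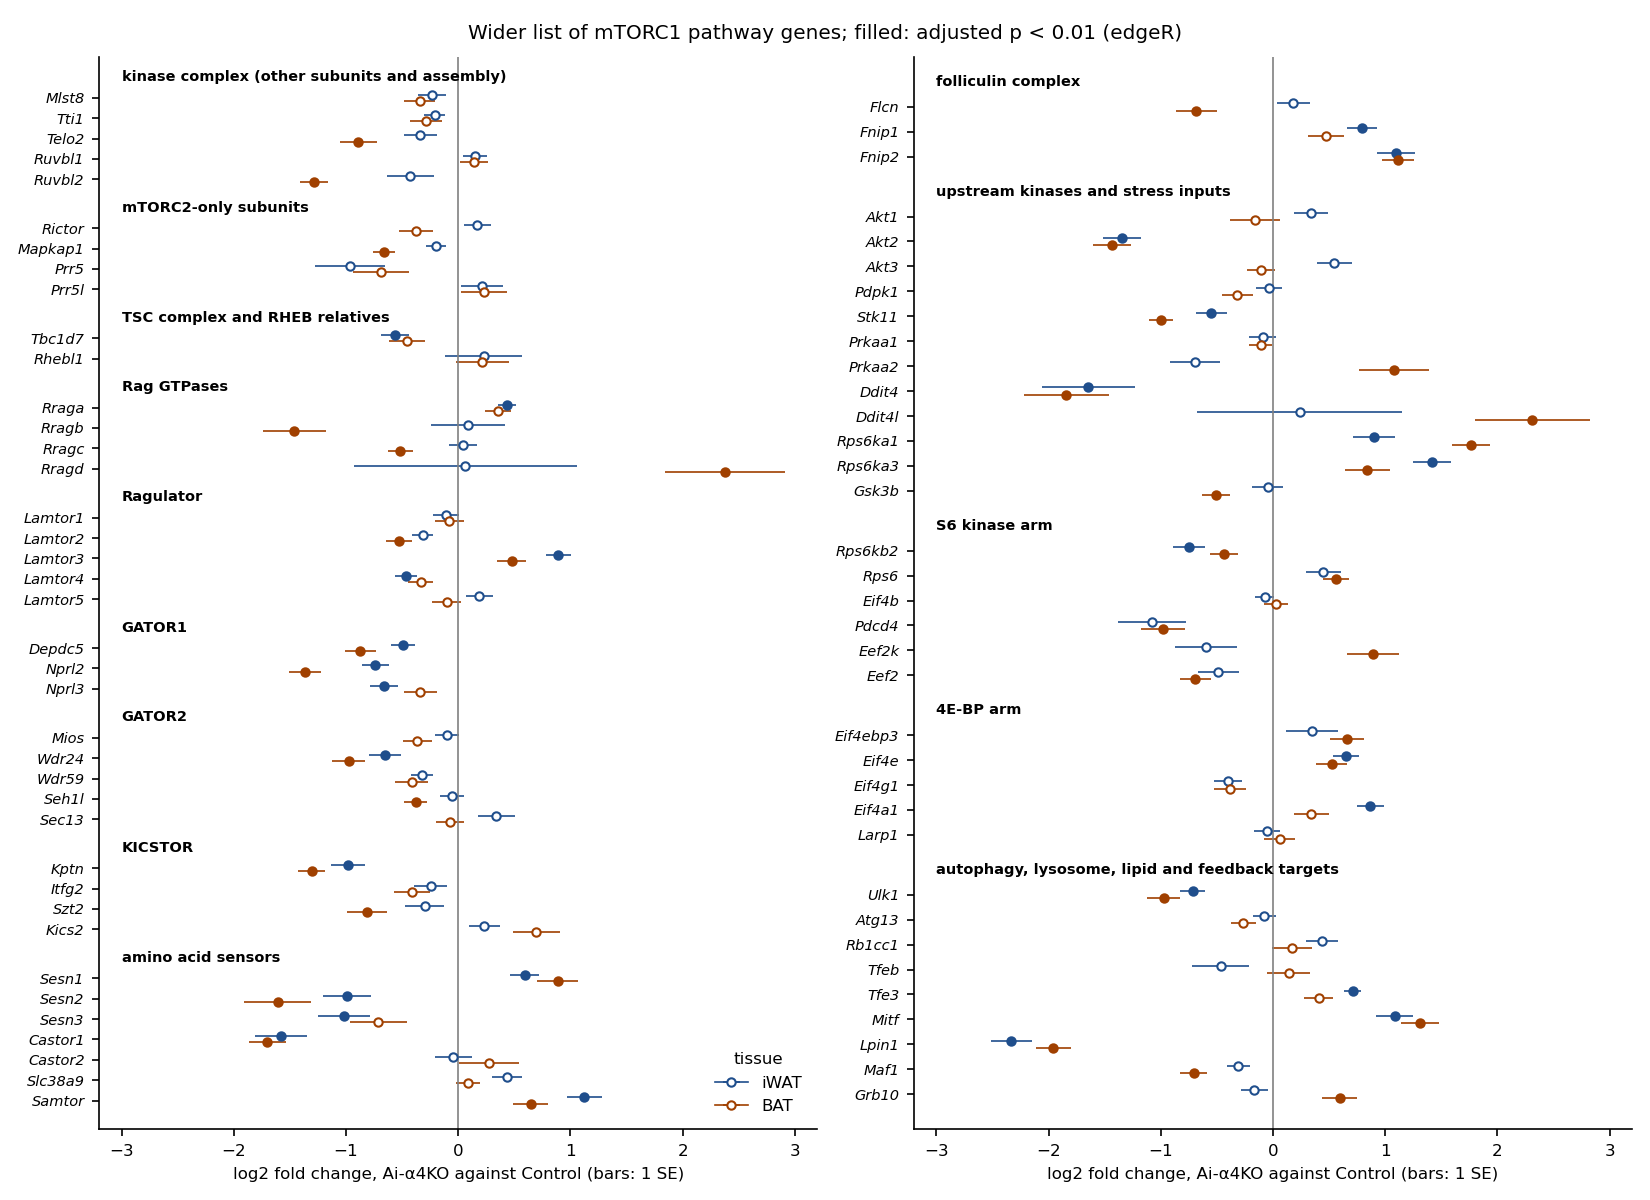
Log2 fold change, Ai-α4KO against Control, of the 74 further pathway genes in iWAT and BAT, grouped by complex or role, with bars of 1 standard error; filled points passed an adjusted p of 0.01 in edgeR's test. Lpin1 lies farthest left in both tissues, and Rragd at 2.38 and Ddit4l at 2.31 lie farthest right in BAT alone with wide bars in iWAT.

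Rragd and Ddit4l, the largest increases of the list in BAT, ran beside the muscle markers. Rragd was at 3.51, 33.6, 19.9, 14.5 and 26.7 CPM in Control BAT and 50.6, 57.3, 108, 216 and 91.0 in Ai-α4KO BAT (log2 fold change 2.38, adjusted p = 0.00202). Ddit4l was at 7.47, 69.1, 33.0, 28.2 and 30.2 CPM in Control BAT and 79.7, 89.8, 170.3, 318 and 191 in Ai-α4KO BAT (2.31, adjusted p = 0.00193). For both genes Control library 1 was the lowest of the BAT libraries and Ai-α4KO library 4 the highest, as they were for the muscle sum at 920 and 43329 CPM. In iWAT the library with the highest level of each gene was Control library 4, followed by Ai-α4KO library 1, the only 2 with muscle sums above 184 CPM. With those 2 iWAT libraries left out, also chosen after seeing the data, Ddit4l rose in iWAT by 1.89 on the log2 scale (adjusted p = 0.000159), against 0.24 with them (adjusted p = 0.842), and Rragd had 1.22 (adjusted p = 0.0491). The libraries left out held the highest level of both genes in each group.

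The BAT comparison was also fitted without Control library 1 and Ai-α4KO libraries 3, 4 and 5, a choice made after seeing the data that left 4 libraries with 5146 to 9518 CPM of muscle markers against 2 with 13274 and 14474. Mtor (-1.60), Rptor (-0.83), Tsc2 (-1.14) and Eif4ebp1 (-0.83) remained called. Deptor (-1.47, adjusted p = 0.03) and Eif4ebp2 (-0.57, adjusted p = 0.0389) were not. Of the wider list 22 of 74 were then called instead of 40, in a fit with fewer libraries. Calls over all genes fell too, to 2956 higher and 2574 lower of 14792, from 3582 and 3560 of 14344. Rragd went from 2.38 to 1.20 (adjusted p = 0.00685) and Ddit4l from 2.31 to 1.09 (adjusted p = 0.0205), and Prkaa2, a catalytic subunit of AMPK, went from 1.08 (adjusted p = 0.00942) to 0.30 (adjusted p = 0.259). For these 3 genes the libraries left out held the lowest Control and the 3 highest Ai-α4KO values in BAT, so the smaller fold changes follow from the choice of libraries and say nothing of muscle RNA. In iWAT, without Control library 4 and Ai-α4KO library 1, 8 members were called instead of 6, with Akt1s1 at -0.77 (adjusted p = 0.000752) and Rheb at 0.44 (adjusted p = 0.00362) added. Calls over all genes rose too, to 3335 higher and 2845 lower of 14610, from 3140 and 2749 of 14604.

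**Figure D5:**
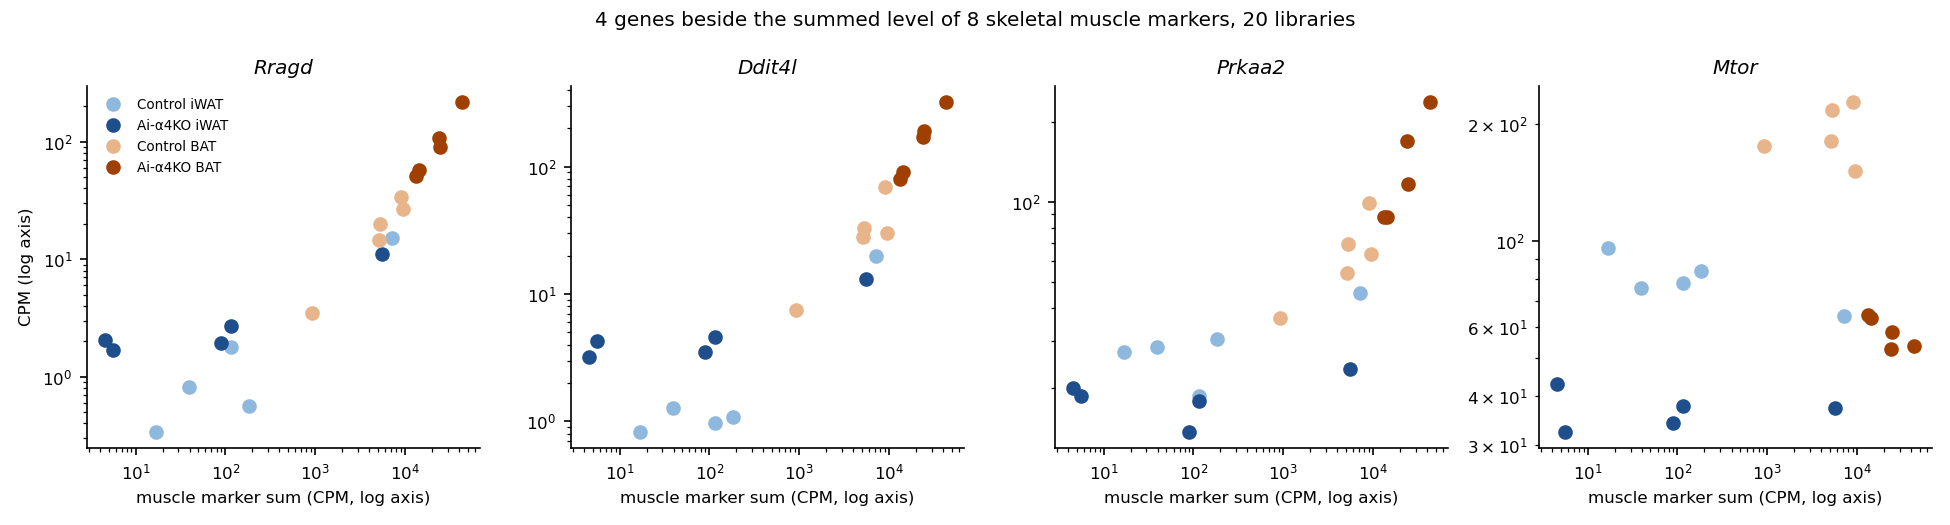
CPM of Rragd, Ddit4l, Prkaa2 and Mtor (vertical log axes) against the summed CPM of 8 skeletal muscle markers (horizontal log axis) in the 20 libraries, coloured by group. The 3 genes on the left are highest in Ai-α4KO BAT library 4, where the sum is 43329 CPM, whereas every Control library lies above every Ai-α4KO library of the same tissue for Mtor. In BAT the muscle sums of the genotypes do not overlap.

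The genes whose pattern over the 20 libraries was most like that of a member were sought among 15230 genes by Pearson's r of log2 CPM. For Mtor they were Cox15, a heme A synthesis enzyme of mitochondria (r = 0.983), Itga1, an integrin subunit (0.982), and Tmem79 (0.981). For Deptor they were Wdr33, a factor of mRNA polyadenylation (0.936), B230354K17Rik (0.919) and Btc, the growth factor betacellulin (0.917). For Eif4ebp1 they were Lipe, the hormone-sensitive lipase (0.970), Ppp1ca, a catalytic subunit of protein phosphatase 1 (0.966), and Tmem120b (0.964). These values describe 20 libraries that fall into 4 groups sharing tissue, genotype and cell makeup, and are given without a test.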

How the data were processed

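RNA from iWAT and BAT was measured in 20 libraries, 5 per tissue and genotype, grouped by the labels. The submitters' processing notes name bcl2fastq 2, STAR 2.5.3a and mm10, while the counting tool, its use of strand and the annotation are not given in the sources used here. The authors deposited an expected count per gene and library, without normalization, of which 76.6% of the nonzero ones are whole, and an FPKM value, the count per transcript length and library total. Counts were rounded, filtered with filterByExpr, normalized by TMM and tested in R 4.3.3 with edgeR 4.0.16 (glmQLFit, glmQLFTest, Benjamini-Hochberg over all genes) within each tissue, between tissues within a genotype, and for the interaction in all 20 libraries. A gene was called at an adjusted p below 0.01. Totals ran from 24023371 to 50384446 counts per library, which limits the precision of low genes most. CPM values share 1 TMM scaling over 20 libraries. Log2 CPM used a prior count of 2. Alternatives were library size without factors, upper-quartile normalization, DESeq2 1.42.0, no filter, a minimum of 10 counts in each library of the fit, a looser adjusted p of 0.05, a 2-fold minimum, limma 3.58.1 on log2(FPKM + 1) and log2(FPKM + 0.1), a fit of all libraries, a replicate block and leaving out libraries. The members, gene lists and tests were chosen with earlier results of these data known. Named from the wider list were its best known members and, per tissue and direction, the 3 called genes with the largest change, and further names outside this rule were chosen after their values were seen. Castor1, Castor2, Samtor and Kics2 are listed in the table under older symbols. Promoter sequences are from RefSeq, and overlaps of exons from GENCODE M21, both on GRCm38. Protein sequences were not used here.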

Additional observations from a re-analysis of the deposited data

Results flagged for a closer look

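The 10 members and Rragd, Ddit4l and Prkaa2 were screened in each group for a library far from the other 4, by the gap to its neighbour over the group's range against a limit of 0.71. Chance passes about 1 in 20 groups. Of the 40 groups of the members 1 passed, and of the 12 groups of the other 3 genes, which were chosen after their values were seen, 4 passed. Akt1s1 passed in Ai-α4KO iWAT (0.977), where library 1 was at 52.4 CPM and the others between 23.8 and 24.5. Rragd passed in Control iWAT (0.901) through library 4 at 15.1 CPM and in Ai-α4KO iWAT (0.894) through library 1 at 11.2 CPM. Ddit4l passed through the same libraries, in Control iWAT (0.977) at 19.9 CPM and in Ai-α4KO iWAT (0.864) at 13.1 CPM. Both libraries carried skeletal muscle markers, at sums of 7174 and 5618 CPM, and the part of muscle RNA was not tested.

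Of the 84 pathway genes tested for an interaction of genotype and tissue, Prkaa2, a catalytic subunit of AMPK, was the only 1 past the threshold, which 4.86% of all genes passed. Its log2 fold change was 1.80 higher in BAT than in iWAT (standard error 0.411, adjusted p = 0.00793). It was at -0.69 in iWAT (adjusted p = 0.0195) and rose in BAT by 1.08 (adjusted p = 0.00942). Its lowest BAT library, Control 1 at 36.5 CPM, and its highest, Ai-α4KO 4 at 237 CPM, were also those of the lowest and highest muscle marker sums. Without Control library 1 and Ai-α4KO libraries 3, 4 and 5, a choice made after seeing the data, its BAT value was 0.30 (adjusted p = 0.259), but these libraries held its lowest Control and 3 highest Ai-α4KO levels in BAT, so the smaller value follows from the choice of libraries. The part of muscle RNA was not tested.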

How the results depend on the processing

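The genotype effects of the 10 members were recomputed 410 times. In 371 the call was unchanged, in 26 it was lost, in 13 it was gained, and no called value changed sign. With a fold of at least 2, 1 member was called in iWAT and 4 in BAT, and 9 and 15 genes of the wider list. Leaving out each library in turn gave 5 to 8 members in iWAT and 5 to 7 in BAT, and 25 to 34 and 32 to 40 genes of the wider list. The fit without Control BAT library 1 and Ai-α4KO BAT libraries 3, 4 and 5, added after seeing the data, called 22 of the wider list and 4 members. Over all genes it called 2956 higher and 2574 lower of 14792, also fewer than the main fit. For the interaction, leaving out each library gave 0 members throughout, and an adjusted p below 0.05 gave 1. Between Control depots, 1 member was called without normalization factors, with upper-quartile normalization and with limma at either pseudocount, 4 with DESeq2, 5 at an adjusted p below 0.05, 1 with a fold of at least 2 and 1 to 3 with a library left out. Between Ai-α4KO depots, 1 was called without normalization factors, 0 with a fold of at least 2 and 1 to 3 with a library left out. By CPM instead of FPKM only 2 of 10 members kept their place in the order of levels in Control iWAT, since CPM is not per length.

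Replicate numbers are shared between the genotypes, but same-numbered libraries did not deviate together, with correlations of -0.451 to 0.134 in iWAT and of -0.147 to 0.215 in BAT, and 1 of 10 libraries correlating best with its own number. Same-numbered iWAT and BAT libraries of a genotype had correlations of -0.265 to 0.244, and 4 of 10 correlated best with their own number. Since not every pair's correlation exceeded 0.1, they were not treated as pairs. The replicate block called 5 members in iWAT, 4 in BAT, 0 for the interaction, 1 between Control depots and 2 between Ai-α4KO depots.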
